A study of Mus musculus with 8 samples.

Results

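The oligoadenylate synthetase genes Oas1a, Oas1g, Oas2, Oas3, Oasl1 and Oasl2 were followed across 8 RNA-sequencing libraries of mouse macrophages. They were taken by gene symbol or Entrez identifier and are 6 of the 18125 genes in the deposited tables. All 6 reached a mean of at least 1 FPKM (fragments per kilobase of transcript, scaled to the library's total) in both cell types, the limit for a gene to enter a comparison of libraries.

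Oligoadenylate synthetases are antiviral enzymes that bind double-stranded RNA and then join ATP into short adenosine chains with an unusual linkage. These chains act as second messengers that lead to the decay of viral and cellular RNA and so halt protein synthesis and virus growth. The genes belong to the interferon-stimulated genes: interferons raise their transcription through JAK kinases, STAT proteins and interferon regulatory factors, and macrophages are among the cells that respond.

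The study asked how the lack of creatine uptake alters gene expression during macrophage polarization. Knockout (KO) cells came from Slc6a8-/y mice, which lack the creatine transporter Slc6a8, and wild-type (WT) cells from wild-type mice, both on the C57BL/6 background. Peritoneal macrophages, elicited by injection of thioglycollate (1 mL at 4%, 3 to 4 days), formed 4 groups: KO and WT cells given 10 ng/mL IFN-gamma over 12 hours, and untreated KO and WT cells. Bone marrow-derived macrophages, differentiated over 5 days in 10% M-CSF, formed the other 4: KO and WT cells given 10 ng/mL IL-4 over 6 hours, and untreated KO and WT cells. Each group is 1 library, and the labels do not say whether libraries share animals, so the spread between animals is unknown. Thioglycollate-elicited cells come from an inflamed cavity, and the knockout is not stated to be limited to macrophages.

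Summed expected counts were 10812678 to 11065427 in the peritoneal libraries and 20553654 to 21221526 in the bone marrow-derived ones. Slc6a8, the deleted gene, had 0.18 FPKM in IFN-gamma-treated KO cells and 0.73 FPKM in untreated KO peritoneal cells, against 39.5 and 164 FPKM in the matching WT cells. In bone marrow-derived cells it had 1.15 FPKM in KO cells with IL-4 and 1.71 FPKM in untreated KO cells, against 87.9 and 97.3 FPKM in the matching WT cells. All 7 macrophage markers were present in all 8 libraries. The 7 dendritic cell markers together reached no more than 1.89 FPKM in any library, the 7 T and NK cell markers no more than 3.27 FPKM and the 6 B cell markers no more than 6.99 FPKM. The 6 eosinophil and mast cell markers reached at most 10.3 FPKM and the 6 neutrophil markers at most 14.8 FPKM. The 7 fibroblast and mesothelium markers reached more, up to 128 FPKM in peritoneal and 374 FPKM in bone marrow-derived libraries, as described further on.

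The 6 genes lie on mouse chromosome 5 (GRCm38.p6), in a pair of clusters. Oas2 (120730333 to 120749886), Oas3 (120753098 to 120777684), Oas1g (120876142 to 120887613) and Oas1a (120896256 to 120907544) are read from the minus strand. Oasl2 (114896926 to 114912245) and Oasl1 (114923143 to 114937911) are read from the plus strand. RefSeq promoter sequences of GRCm38.p6 were at hand for 5 of the 6 genes, all but Oas2. For 4 of them the 100 bases before the RefSeq start site are shown because these genes rose with IFN-gamma, as described further on. That start differs from the gene bounds above, which span all annotated transcripts: 19 of the bases shown lie inside the bounds of Oas1a, 0 inside those of Oas1g, 25 inside those of Oas3 and 8 inside those of Oasl2. For Oasl1 it is 97 of the 100, and its bases are not shown. Capitals mark matches to GAAA, any 2 bases and GAAA again, the core of the interferon-stimulated response element, the sequence that complexes of STAT proteins and interferon regulatory factors bind.
Oas1a, chr5:120907526-120907625, minus strand: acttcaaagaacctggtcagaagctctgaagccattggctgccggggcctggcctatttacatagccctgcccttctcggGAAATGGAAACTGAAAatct
Oas1g, chr5:120887614-120887713, minus strand: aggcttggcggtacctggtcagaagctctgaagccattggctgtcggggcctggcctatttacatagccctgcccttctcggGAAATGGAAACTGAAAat
Oas3, chr5:120777660-120777759, minus strand: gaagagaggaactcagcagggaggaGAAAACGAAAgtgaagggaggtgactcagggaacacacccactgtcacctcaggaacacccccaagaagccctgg
Oasl2, chr5:114896834-114896933, plus strand: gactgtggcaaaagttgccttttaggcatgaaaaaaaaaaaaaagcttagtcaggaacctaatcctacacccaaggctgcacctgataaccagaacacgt

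Both strands were searched over the 250 bases before and the 50 bases after each start. Oas1a and Oas1g each held an overlapping pair of matches that merge into the run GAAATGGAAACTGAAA, at -20 to -5 in Oas1a and at -18 to -3 in Oas1g. Oas3 held 1 match, at -75 to -66, and the windows of Oasl1 and Oasl2 held none. Of all 32851 promoters in the table, 3.44% held at least 1 match. The letters TTC, any 3 bases and GAA, the palindrome that STAT dimers bind, matched once in Oas1a, at -98 to -90, in none of the other 4 windows, and in 8.3% of all promoters. These are letter matches in 1 annotated window per gene and do not show binding.

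Oas1a and Oas1g are near-identical copies, which limits how well their reads can be separated. Their coding sequences of 1101 bases differ at 36 positions (96.7% identity), and the first 220 coding bases are the same. Of the 50-base stretches of the Oas1a transcript, 56.9% also occur in that of Oas1g, and 54.1% the other way round. The other pairs of members share no 50-base stretch, and their coding sequences align at 61.6% to 72.9% identity. The stretch where the pair differs most, coding bases 408 to 527, is shown because reads from it can separate the copies, with the 17 differing bases in capitals.
Oas1a, coding bases 408 to 527: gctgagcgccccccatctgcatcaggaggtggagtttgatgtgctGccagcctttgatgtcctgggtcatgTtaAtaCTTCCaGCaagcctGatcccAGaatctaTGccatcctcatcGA
Oas1g, coding bases 408 to 527: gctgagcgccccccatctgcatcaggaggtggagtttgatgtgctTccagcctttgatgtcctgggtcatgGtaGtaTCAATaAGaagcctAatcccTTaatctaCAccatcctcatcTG

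The results below therefore give Oas1a and Oas1g as the authors' software split them, and also their sum. Fold values compare expected counts after scaling to each library's total. Their intervals are exact 95% counting intervals, which cover neither the spread between cultures nor the split between the copies.

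The enzymatically active synthetases were higher after IFN-gamma than in untreated peritoneal macrophages in both genotypes, and the treated KO library was the highest of the 4 for each of them. Oas1a, one of the active synthetases that make these chains, had 74.9 FPKM in KO cells and 31.9 FPKM in WT cells with IFN-gamma, against 14.1 FPKM in untreated KO cells and 16.3 FPKM in untreated WT cells. Its paralog Oas1g had 15.3 and 5.47 FPKM in KO and WT cells with IFN-gamma, against 0.93 and 0.83 FPKM in untreated KO and WT cells. In both genes the untreated libraries lay close together and the treated ones apart. The summed count of the pair was 1894 in KO and 788 in WT cells with IFN-gamma, against 311 and 351 in untreated KO and WT cells. Oas1g made up 18.1% and 15.5% of that sum in the treated KO and WT libraries, against 6.78% and 5.14% in the untreated ones.

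Oas2 and Oas3 are larger synthetases built from several copies of the catalytic unit. Oas2 had 20.7 FPKM in KO cells and 3.45 FPKM in WT cells with IFN-gamma, against 0.56 FPKM in untreated KO cells and 0.47 FPKM in untreated WT cells. Oas3 had 58.2 and 12.4 FPKM in the treated KO and WT libraries, against 6.38 and 4.32 FPKM in the untreated ones. Oas2 was the least abundant of the 6 in both untreated libraries and in treated WT cells, but stood above Oas1g in treated KO cells.

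The Oas-like genes carry ubiquitin-like repeats behind the synthetase fold. Mouse Oasl2 is known to keep enzyme activity, whereas mouse Oasl1 is inactive as a synthetase and is known to block translation of Irf7, a transcription factor of interferon genes. Oasl1 had 65.5 FPKM in KO cells and 6.43 FPKM in WT cells with IFN-gamma, against 1.64 FPKM in untreated KO cells and 2.31 FPKM in untreated WT cells. Oasl2 had 115 and 21.7 FPKM in the treated KO and WT libraries, against 8.65 and 7.74 FPKM in the untreated ones. Oasl2 was the most abundant member in treated KO cells, where Oas1a was the most abundant in treated WT cells and in both untreated libraries.

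**Figure D1:**
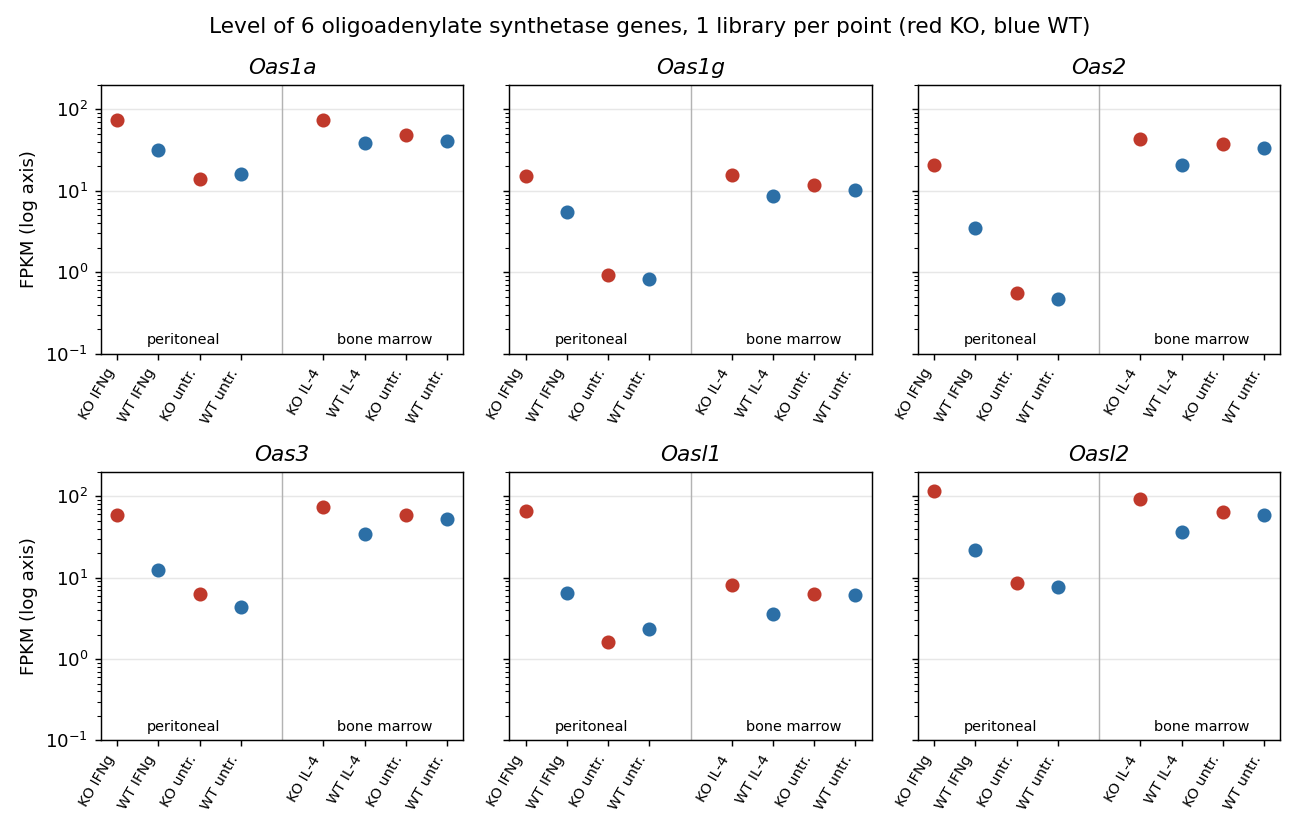
FPKM (log axis) of each gene in the 8 libraries, 1 point per library, red for KO and blue for WT, peritoneal macrophages on the left of each panel and bone marrow-derived ones on the right. In peritoneal cells the treated KO library is the highest and the treated WT library the next for all 6 genes; in bone marrow-derived cells the IL-4-treated KO library is the highest and the IL-4-treated WT library the lowest for all 6.

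The IFN-gamma response was larger in KO than in WT cells for each of the 6 genes. In KO cells the fold ranged from 5.32 (4.69 to 6.05) for Oas1a to 40.0 (29.0 to 56.8) for Oasl1, with 9.13 (8.15 to 10.3) for Oas3, 13.3 (11.9 to 15.1) for Oasl2, 16.3 (10.5 to 26.6) for Oas1g and 36.8 (24.6 to 57.8) for Oas2. In WT cells it ranged from 1.95 (1.71 to 2.24) for Oas1a to 7.28 (4.55 to 12.3) for Oas2, with 2.78 (2.02 to 3.88) for Oasl1, 2.80 (2.43 to 3.24) for Oasl2, 2.87 (2.47 to 3.36) for Oas3 and 6.62 (4.02 to 11.5) for Oas1g. All 12 intervals excluded 1, but they cover counting error only, and the share of all genes with such intervals was not computed. The order of the genes differed as well: Oasl1 had the highest fold in KO cells and the next to lowest in WT cells, where its interval overlapped those of Oasl2 and Oas3.

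On the log2 scale of FPKM + 1, which shrinks the change of low genes, the median response of the 6 genes was 3.34 in KO cells and 1.36 in WT cells, while the medians of all 10670 genes compared were -0.11 and -0.05. At least 2-fold higher on that scale were 6 of 6 members in KO cells, where 7.27% of all genes were, and 5 of 6 in WT cells, where 5.94% were. The exception was Oas1a in WT cells, at 0.93.

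Across both genotypes, the 6 genes rose with IFN-gamma in edgeR's quasi-likelihood test of an additive model with genotype and stimulus. Benjamini-Hochberg adjustment ran over all 12052 genes tested, of which 17.2% rose and 14.9% fell. The log2 change was 4.46 ± 0.46 for Oas2 (SE; adjusted p = 0.00111), 3.78 ± 0.81 for Oasl1 (adjusted p = 0.0169) and 3.58 ± 0.31 for Oas1g (adjusted p = 0.000608). It was 2.75 ± 0.53 for Oasl2 (adjusted p = 0.0111), 2.51 ± 0.39 for Oas3 (adjusted p = 0.00524) and 1.79 ± 0.34 for Oas1a (adjusted p = 0.0105). The model has 1 residual degree of freedom and takes the KO and the WT pair as repeats, so a difference between their responses counts as spread. DESeq2 called 4 of the 6, without Oas1a and Oasl1.

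**Figure D2:**
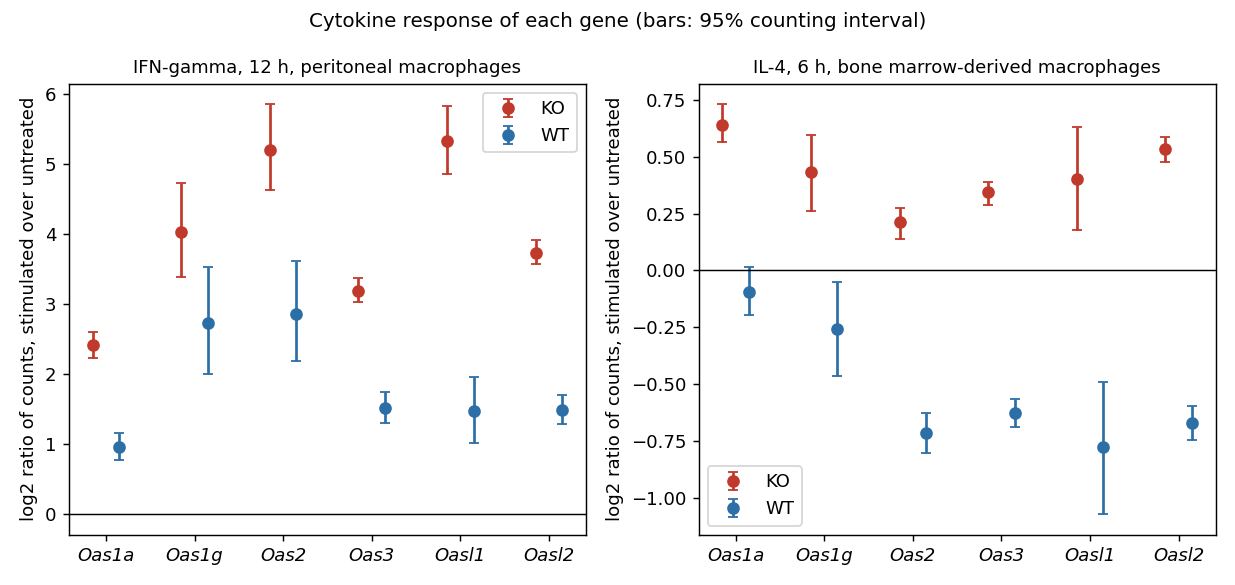
Response of each gene to IFN-gamma in peritoneal macrophages (left) and to IL-4 in bone marrow-derived macrophages (right), as the log2 ratio of counts of the treated over the untreated library, red for KO and blue for WT. Bars are 95% counting intervals: on the left each KO point lies above its WT point, and on the right all KO points lie above 0 and all WT points below it, with the interval of Oas1a in WT cells reaching past 0.

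Set directly against each other, KO cells had more of each member than WT cells after IFN-gamma, whereas the untreated pair was close. With IFN-gamma the KO over WT fold was 10.2 (8.62 to 12.1) for Oasl1, 6.00 (5.04 to 7.19) for Oas2, 5.31 (4.91 to 5.75) for Oasl2 and 4.68 (4.30 to 5.09) for Oas3. It was lower for the Oas1 pair, at 2.83 (2.30 to 3.51) for Oas1g and 2.34 (2.14 to 2.57) for Oas1a. In untreated cells only the interval of Oas3, 1.47 (1.24 to 1.75), excluded 1. The other 5 untreated folds lay between 0.709 (Oasl1, 0.455 to 1.1) and 1.19 (Oas2, 0.628 to 2.26).

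On the log2 scale of FPKM + 1 the KO over WT median of the 6 genes was 2.21 with IFN-gamma and 0.08 without, against -0.02 and 0.04 over all genes compared. All 6 were at least 2-fold higher in treated KO cells, as were 1.56% of all genes, and none of the 6 was in untreated KO cells, where 0.356% of all genes passed that limit upward and 0.422% downward. Among the 10670 genes Oasl1 ranked 5 from the top with IFN-gamma, Oasl2 24, Oas2 27, Oas3 31, Oas1g 92 and Oas1a 108. The KO response exceeded the WT response by 3.49 for Oasl1, 2.21 for Oasl2, 2.2 for Oas2, 1.67 for Oas3, 1.40 for Oas1a and 1.26 for Oas1g, and 1.51% of all genes had an excess of at least 1. With 4 libraries in 4 groups, this difference of responses has no test. These comparisons share libraries with those of the responses and are not independent of them.

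In the additive model the genotype term of the peritoneal libraries called none of the 6 genes, with log2 values from 0.57 ± 0.33 for Oas1a (SE; edgeR adjusted p = 0.49) to 2.27 for Oasl1 (edgeR adjusted p = 0.329). Of all genes 0.0249% rose and 0.00830% fell. At an unadjusted p under 0.05 were 5 of the 6 in edgeR, where 13.9% of all genes were. DESeq2 and limma had 1 each, where 2.36% and 12.0% of all genes were, and 0 calls after adjustment. The term fits 1 value to the treated and the untreated pair, and that value need not be their mean. For Oas2 it was 2.19 in edgeR, 1.45 in DESeq2 and 1.19 in limma, and for Oasl1 2.27, 1.43 and 1.42.

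**Figure D3:**
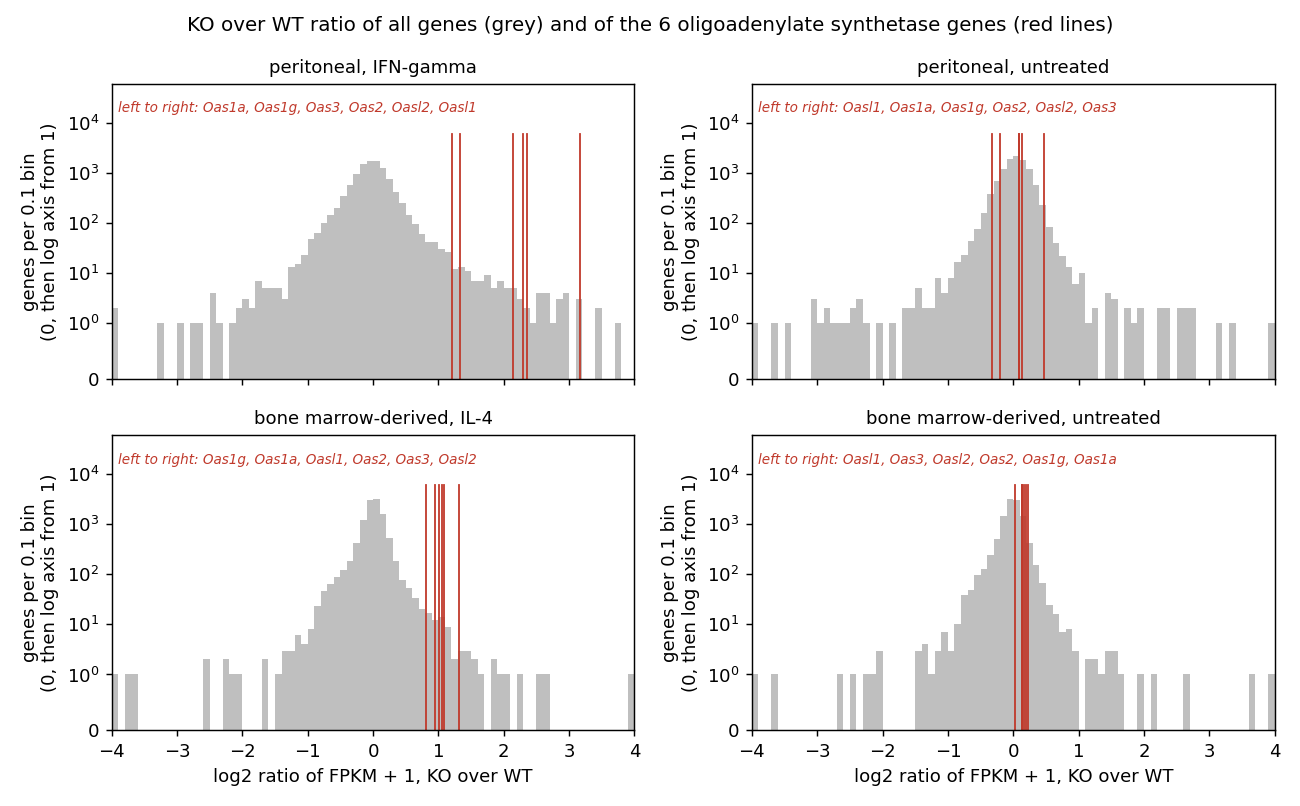
Number of genes by log2 ratio of FPKM + 1, KO over WT (grey, log axis; values beyond 4 or -4 stand in the outermost bins), in the 4 pairs of libraries, with the 6 genes as red lines. The lines lie at 1.21 to 3.16 with IFN-gamma, at -0.33 to 0.47 in untreated peritoneal cells, at 0.81 to 1.32 with IL-4 and at 0.02 to 0.22 in untreated bone marrow-derived cells.

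Bone marrow-derived macrophages expressed the 6 genes without any added interferon. In untreated cells Oas1a had 47.9 FPKM in KO and 41.0 FPKM in WT cells, Oas2 had 37.9 and 33.7 FPKM, Oas3 58.6 and 53.0 FPKM, and Oasl2 63.9 and 58.0 FPKM in KO and WT cells. Oas1g had 11.8 and 10.2 FPKM, and Oasl1 6.21 and 6.13 FPKM. Except for Oasl1, whose untreated bone marrow-derived levels were near that of IFN-gamma-treated WT peritoneal cells, these untreated levels were all above those of IFN-gamma-treated WT peritoneal cells. The cell types differ in origin, culture and depth, which cannot be told apart here.

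After IL-4, the levels were higher than in untreated cells in the KO pair and lower in the WT pair. Oas1a had 75.0 FPKM in KO and 38.5 FPKM in WT cells with IL-4, and Oas1g 15.9 and 8.59 FPKM. The summed count of this pair was 3680 in KO and 1847 in WT cells with IL-4, against 2417 and 2073 in untreated cells. For Oas2 the values were 43.8 FPKM in KO and 20.5 FPKM in WT cells with IL-4, and for Oas3 74.2 and 34.4 FPKM. Oasl1 had 8.22 and 3.58 FPKM, and Oasl2 92.5 and 36.4 FPKM, in the IL-4-treated KO and WT libraries. For every member the treated KO library was the highest and the treated WT library the lowest of the 4.

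In KO cells the fold of IL-4-treated over untreated counts was 1.56 (1.48 to 1.66) for Oas1a, 1.45 (1.39 to 1.5) for Oasl2, 1.35 (1.20 to 1.51) for Oas1g, 1.32 (1.13 to 1.55) for Oasl1, 1.27 (1.22 to 1.31) for Oas3 and 1.16 (1.1 to 1.21) for Oas2. In WT cells the IL-4 fold was 0.584 (0.476 to 0.713) for Oasl1, 0.609 (0.573 to 0.648) for Oas2, 0.628 (0.596 to 0.661) for Oasl2, 0.648 (0.621 to 0.677) for Oas3 and 0.837 (0.726 to 0.965) for Oas1g. The WT interval of Oas1a, 0.938 (0.874 to 1.01), included 1. None of these changes reached 2-fold, which 1.27% of all genes exceeded upward in KO cells and 0.449% downward in WT cells. On the log2 scale of FPKM + 1 all 6 members were above 0 in KO cells, as were 46.1% of the 10906 genes compared, and all 6 below 0 in WT cells, as were 57.6%. The medians were 0.38 in KO and -0.62 in WT cells, against -0.01 and -0.04 over all genes.

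KO over WT, the IL-4-treated libraries differed by folds of 2.54 (2.42 to 2.67) for Oasl2, 2.30 (1.90 to 2.79) for Oasl1, 2.16 (2.07 to 2.25) for Oas3, 2.13 (2.01 to 2.26) for Oas2, 1.95 (1.83 to 2.08) for Oas1a and 1.85 (1.63 to 2.11) for Oas1g. In the untreated pair the folds were 1.01 (0.855 to 1.20) for Oasl1 and 1.1 to 1.17 for the other 5, whose intervals excluded 1. These intervals cover counting error only, and the share of all genes with such intervals was not computed. On the log2 scale of FPKM + 1 the median was 1.03 with IL-4 and 0.15 without. At least 2-fold higher in treated KO cells were 4 of 6 members, where 0.385% of all genes were, with Oas1a at 0.95 and Oas1g at 0.81 just under that limit. Oasl2 ranked 16 from the top of the 10906 genes, and Oas1g, the lowest member, 67. The excess of the KO response over the WT response was 1.18 for Oasl2, 0.99 for Oasl1, 0.95 for Oas3, 0.90 for Oas2, 0.73 for Oas1a and 0.63 for Oas1g, so 1 of 6 reached 2-fold, as did 0.413% of all genes. It has no test either.

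Fitted over the 4 bone marrow-derived libraries, the genotype term showed Oas1a and Oas1g higher in KO cells and left the other 4 short of the threshold. The log2 change was 0.60 ± 0.13 for Oas1a (SE; edgeR adjusted p = 0.0259) and 0.55 ± 0.13 for Oas1g (edgeR adjusted p = 0.0479), and of all 12879 genes 1.51% rose and 3.68% fell. The other 4 had log2 values of 0.58 to 0.74, with edgeR adjusted p of 0.0519 for Oas2, 0.0573 for Oas3, 0.068 for Oasl2 and 0.174 for Oasl1. This term fits 1 value to the IL-4-treated and the untreated pair, so a gap between the pairs counts as spread. On the log2 scale of FPKM + 1, Oas1a had KO over WT ratios of 0.95 with IL-4 and 0.22 without. Those of Oas1g were 0.81 and 0.19. For Oasl2, which had the largest log2 change of 0.74, they were 1.32 and 0.14. The calls depend on the tool: DESeq2 and limma called none of the 6, and edgeR without the filter on low counts called 6. They also depend on the split of the copies. With the counts of Oas1a and Oas1g summed, edgeR called the sum (0.59 ± 0.12, edgeR adjusted p = 0.0241) and Oas2 (edgeR adjusted p = 0.0483). The IL-4 term called none of the 6 in edgeR, with 1 of 6 at an unadjusted p under 0.05, where 33.6% of all genes were, and DESeq2 and limma had 0 calls and 0 of 6 at an unadjusted p under 0.05, where 10.8% and 33.7% of all genes were. Its log2 values ranged from -0.19 to 0.33, where the term fits 1 value to KO and WT cells that differed in direction. Of all genes 12.0% rose and 9.23% fell.

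The levels of markers of other cells moved with some of these groups. In bone marrow-derived cells 3 of the 4 tested fibroblast and mesothelium markers fell with genotype, Col1a1, Col1a2 and Col3a1. Of all genes 3.68% fell. The summed level of all 7 was 171 FPKM in KO and 352 FPKM in WT cells with IL-4, and 199 and 374 FPKM in untreated KO and WT cells, with 2 or 3 of the 7 at 0 or not listed. In peritoneal cells 3 of the 6 tested markers of that list fell with IFN-gamma, and the sum was 80.4 and 104 FPKM in treated KO and WT cells, against 115 and 128 FPKM in untreated KO and WT cells. Of the 7 macrophage markers 2 rose and 3 fell with IFN-gamma, where 17.2% of all genes rose and 14.9% fell. Their sum, mostly Lyz2 and Cd68, was 6070 and 7430 FPKM in treated KO and WT cells, against 8400 and 10100 FPKM in untreated ones. After IFN-gamma 6 of the 7 were lower in KO than in WT cells, as were 53.4% of all genes. The KO over WT median of the 7 was -0.33 on the log2 scale of FPKM + 1. Fcgr1 had 25.2 and 62.3 FPKM in treated KO and WT cells and Csf1r 65.4 and 118 FPKM, while Mertk was higher in KO, at 85.0 and 55.8 FPKM. With IL-4 2 of the 7 macrophage markers rose and 3 fell, where 12.0% of all genes rose and 9.23% fell, and Col3a1 fell. The sum of the 7 was 11400 FPKM in treated KO and in treated WT cells, against 14000 and 13900 FPKM in untreated ones. Single markers of other lists passed the test at low levels. With IFN-gamma Cd3d, Xcr1 and Cxcr2 rose and Bcl11a and Mmp8 fell, with IL-4 Flt3, Siglecf and Ccr3 rose and Mmp8 fell, and Ccr3 fell with genotype in bone marrow-derived cells. Cd3d had 3.2 and 1.48 FPKM in treated KO and WT cells, against 0.67 and 0.22 FPKM in untreated KO and WT cells. The other listed T and NK cell markers, Cd2, Cd3e and Klrb1c, did not rise with IFN-gamma. Cd2 had 0 and 0.64 FPKM in treated KO and WT cells, against 0.65 and 0.74 FPKM in untreated ones. In treated KO cells 5 of the 7 markers of that list were at 0 or not listed. The part of these shifts in the results was not tested, and in bulk RNA fewer cells of a type cannot be told apart from less RNA per cell.

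Ordered over all 8 libraries, Oas1a, Oas1g, Oas2 and Oas3 peaked in IL-4-treated KO bone marrow-derived cells, and Oasl1 and Oasl2 in IFN-gamma-treated KO peritoneal cells. The lowest library was an untreated peritoneal one for all 6: KO for Oas1a and Oasl1, WT for the other 4. The ratio of the highest to the lowest level was 5.32 for Oas1a, 14.9 for Oasl2, 17.2 for Oas3, 19.1 for Oas1g, 40.0 for Oasl1 and 93.2 for Oas2. Of the 42 neighbouring pairs in these orders 15 had overlapping counting intervals. Among them were the top libraries of Oas1a (75.0 and 74.9 FPKM) and of Oas1g (15.9 and 15.3 FPKM), and the untreated peritoneal KO and WT libraries of every member but Oas3.

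The make-up of the family differed more among peritoneal than among bone marrow-derived libraries. Oas1a took 21.4% of the summed FPKM of the 6 genes in treated KO and 39.2% in treated WT peritoneal cells, against 43.7% and 51.0% in untreated KO and WT cells. Oasl1 took 18.7% in treated KO and 7.90% in treated WT cells, against 5.09% and 7.22% in untreated KO and WT cells. In bone marrow-derived cells Oas1a stayed between 20.3% and 27.1% and Oasl1 between 2.52% and 3.03%. Oas2 took 14.2% to 16.7% there, compared with 1.47% to 5.92% in peritoneal cells.

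**Figure D4:**
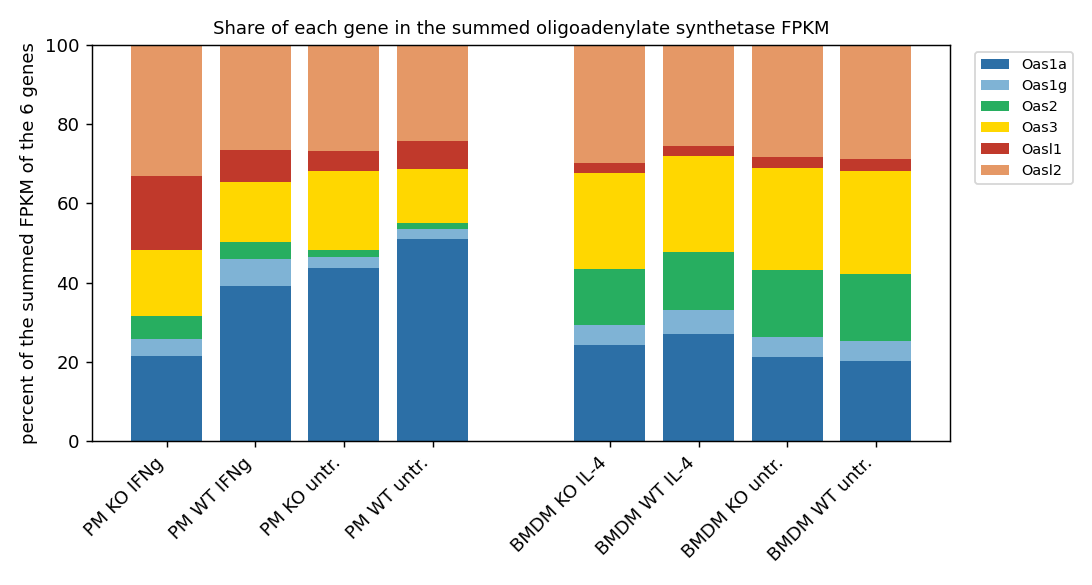
Share of each gene in the summed FPKM of the 6 genes, 1 bar per library, peritoneal macrophages (PM) on the left and bone marrow-derived macrophages (BMDM) on the right. Oas1a takes 21.4% of the bar in IFN-gamma-treated KO peritoneal cells and 51.0% in untreated WT ones, while the bone marrow-derived bars are alike.

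The remaining Oas1 genes of the cluster were scarce. Of 6 such genes 3 were listed, and Oas1d, Oas1e and Oas1f have no value here. Oas1b, annotated as a transcribed pseudogene and known to be truncated in common laboratory mouse strains, had 3.48 FPKM in KO and 0.57 FPKM in WT peritoneal cells with IFN-gamma, against 0.94 and 1.32 FPKM in untreated KO and WT cells. It had 4.53 to 7.0 FPKM in bone marrow-derived cells. Oas1c stayed at or under 0.96 FPKM in peritoneal and reached 4.06 FPKM in bone marrow-derived cells, and Oas1h was listed in bone marrow-derived cells alone, at 0.12 to 0.19 FPKM. No term of the edgeR model called Oas1b or Oas1c.

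Genes that act downstream of the synthetases or are related to them gave a mixed picture. Abce1, a ribosome recycling factor that also restrains the pathway, and Pde12, which degrades the chains, did not pass the test with IFN-gamma, at 22.7 to 27.3 and 6.01 to 7.63 FPKM in the peritoneal libraries. Both rose with IL-4, by 0.33 and 0.72 on the log2 scale, as did 12.0% of all genes. Cgas, a DNA sensor of the same nucleotidyltransferase fold, rose with IFN-gamma, as did 17.2% of all genes. It had 10.5 FPKM in KO and 5.00 FPKM in WT treated cells, against 3.37 and 3.17 FPKM in untreated KO and WT cells.

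Of 8 other RNA sensors and adaptors tested, 6 rose with IFN-gamma in edgeR, as did 17.2% of all genes. Over the 8, the KO over WT median with IFN-gamma was 1.17 on the log2 scale of FPKM + 1. At least 2-fold higher in KO cells were 4 of them, as were 1.56% of all genes. The most abundant was Zbp1, a sensor of left-handed nucleic acids, with 356 FPKM in KO and 245 FPKM in WT treated cells, against 4.4 and 2.92 FPKM in untreated KO and WT cells. Eif2ak2, the RNA-activated kinase PKR, had 52.5 and 19.1 FPKM, against 5.38 and 5.01 FPKM. Ifih1, which encodes the RNA sensor MDA5, had 34.2 and 9.24 FPKM, against 4.48 and 3.88 FPKM, and Adar, an RNA-editing enzyme, 41.2 and 21.3 FPKM, against 13.3 and 11.6 FPKM. The KO over WT ratio of Zbp1 in treated cells, 0.54 on that scale, was below that of each of the 6 synthetase genes, and that of Ifih1, 1.78, lay within their range. With IL-4 the KO over WT median of the 8 genes was 0.58.

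Among interferon receptors and kinases 4 of 7 rose with IFN-gamma, Ifnar2, Jak1, Jak2 and Tyk2, where 17.2% of all genes did. The KO over WT median of the 7 was 0.07 with IFN-gamma and -0.02 with IL-4. Of 8 interferon transcription factors 7 rose with IFN-gamma, against the same 17.2% of all genes. Their KO over WT median was 0.14 with IFN-gamma. In KO cells 2 of the 8 were at least 2-fold higher, as were 1.56% of all genes. Irf1, an early interferon target, had 660 FPKM in KO and 580 FPKM in WT treated cells, against 13.1 and 12.7 FPKM in untreated KO and WT cells, and Irf8 had 633 and 590 FPKM, against 64.1 and 71.4 FPKM. Stat2, which serves type I and type III interferon signals, had 82.5 and 40.6 FPKM in treated KO and WT cells, against 6.24 and 6.02 FPKM in untreated KO and WT cells. Irf7, the target of Oasl1 named above, had 133 and 26.8 FPKM in treated KO and WT cells, against 3.26 and 4.3 FPKM in untreated KO and WT cells. In treated cells the KO over WT ratios on the log2 scale of FPKM + 1 were 0.19 for Irf1, 0.10 for Irf8, 1.0 for Stat2 and 2.26 for Irf7, and those of the synthetase genes ran between 1.21 and 3.16.

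The 4 interferon feedback genes split into pairs by their KO over WT ratio. Usp18, which restrains the type I interferon receptor, had 66.3 FPKM in KO and 9.39 FPKM in WT treated cells, against 3.25 and 2.09 FPKM in untreated KO and WT cells. Isg15, a ubiquitin-like protein, had 140 and 26.5 FPKM, against 6.35 and 2.60 FPKM. Socs1 had 99.8 and 90.1 FPKM, against 2.58 and 2.15 FPKM, and Socs3 had 49.7 and 56.6 FPKM, against 1.96 and 2.99 FPKM. All 4 rose with IFN-gamma in edgeR, as did 17.2% of all genes. With IL-4 Usp18 had 17.3 and 7.97 FPKM in KO and WT cells, against 12.8 and 12.7 FPKM in untreated KO and WT cells, and Isg15 had 31.7 and 10.3 FPKM, against 18.4 and 17.4 FPKM. Of 7 interferon ligand genes Ifnb1 was listed, at 0.37 FPKM in treated KO peritoneal cells and 0.38 FPKM in IL-4-treated KO bone marrow-derived cells and at 0.13 FPKM in untreated WT bone marrow-derived cells. These values rest on 3, 6 and 2 counts, and it was not listed in the other 5 libraries.

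**Figure D5:**
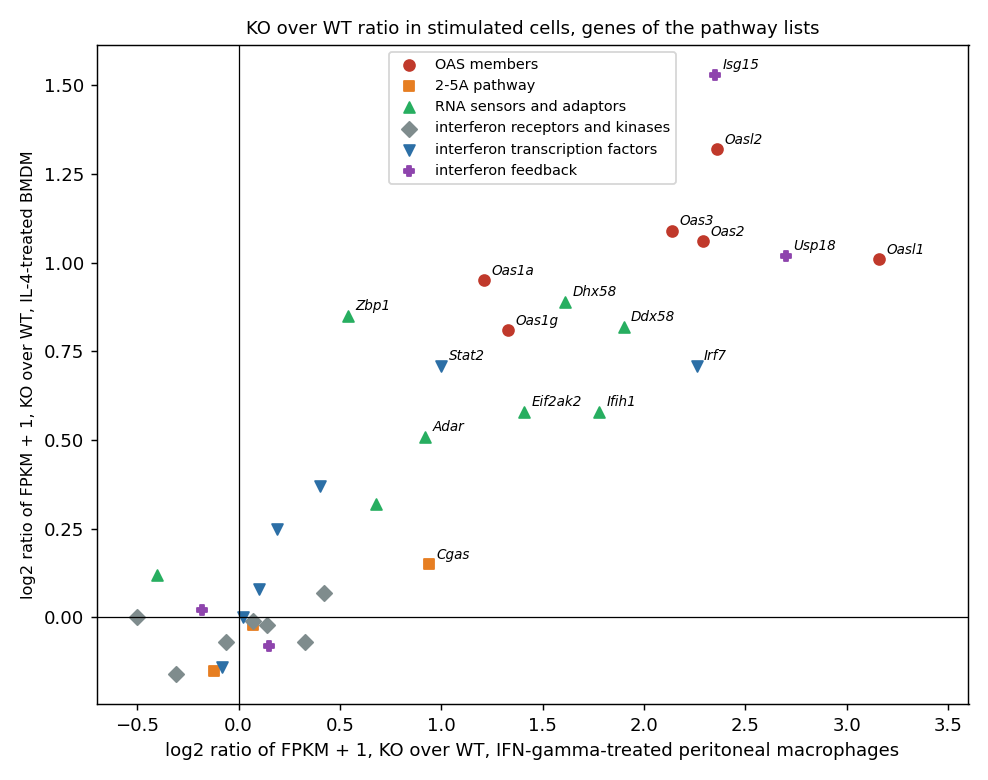
Log2 ratio of FPKM + 1, KO over WT, in IFN-gamma-treated peritoneal macrophages (horizontal) and IL-4-treated bone marrow-derived macrophages (vertical), 1 point per gene, symbols by gene list. The 6 synthetase genes lie at 1.21 to 3.16 and 0.81 to 1.32, while Zbp1 lies at 0.54 with IFN-gamma.

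With the 6 members left out, the protein-coding genes whose level patterns were most like theirs were found by the root mean square difference of centred log2 values of FPKM + 1 over the 8 libraries, among 9774 genes expressed in both cell types. For Oas1a these were Sp100 (0.17), Znfx1 (0.21) and Samd9l (0.23), where the median gene was at 0.84. Oas1g was, among these genes, nearest to Cxcl16 (0.30), Lgals3bp (0.31) and Dck (0.32), and Oasl2 to Ifi44 (0.30), Dhx58 (0.40) and Xaf1 (0.41). Oas2 was nearest to Rtp4 (0.38), Irf7 (0.56) and Ifit3 (0.62), Oas3 to Gpr84 (0.50), Dhx58 (0.51) and Dck (0.52), and Oasl1 to Ifi213 (0.40), Usp18 (0.41) and Trim30a (0.44). Rtp4 had 61.3 FPKM in KO and 10.3 FPKM in WT peritoneal cells with IFN-gamma, against 1.58 and 1.30 FPKM in untreated KO and WT cells. In bone marrow-derived cells it had 68.1 and 30.7 FPKM in KO and WT cells with IL-4, against 51.0 and 47.9 FPKM in untreated KO and WT cells. Some members were nearer to each other than to any of these genes. The most alike were Oas1g and Oasl2 (0.29), followed by Oas3 and Oasl2 (0.32), and Oasl1 was the most distant, at 0.87 or more from each of the other 5.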

How the data were processed

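The members and gene lists were chosen with earlier results of these data known. Per the file headers, each library's table holds an expected count and an FPKM value per Entrez gene. The authors' expected counts and FPKM values came from Bowtie2 2.2.5, RSEM and mm10, per the submitters' processing notes, which name no RSEM version. The deposited FPKM values were compared as log2(FPKM + 1) between 2 libraries, with no test, among the genes that averaged 1 FPKM or more over a cell type's 4 libraries (10670 peritoneal, 10906 bone marrow-derived); unlisted genes were set to 0. Called there means at least 2-fold. The deposited expected counts were rounded and tested with edgeR 4.0.16 (TMM, filterByExpr, quasi-likelihood, genotype + stimulus, adjusted p under 0.05), per cell type, in R 4.3.3. DESeq2 1.42.0, limma 3.58.1 (limma-trend on log2(FPKM + 1)), other scalings, no filter, a pseudocount of 0.1 FPKM and Oas1a and Oas1g summed were alternatives. The edgeR step was tested on simulated data with additive effects only, which does not cover responses that differ between genotypes. Exact conditional binomial intervals cover counting error only. Totals of 10812678 to 21221526 counts set the precision; a count of 0 allows up to 0.277 CPM. P-values measure only the spread between these libraries. Up to 4 genes of a list were named, by mean peritoneal FPKM. Rtp4, Fcgr1, Mertk and genes named with a count of calls were picked after their values were seen. Symbols and gene positions came from RefSeq, transcripts and their strands from GENCODE M21 (GRCm38.p6), and promoters from RefSeq (GRCm38.p6). Some genes of the lists are not reported here.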

Additional observations from a re-analysis of the deposited data

Results flagged for a closer look

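The IL-4 response of 5 members ran upward in KO and downward in WT bone marrow-derived cells, each with counting intervals that exclude a fold of 1. Of all genes 46.1% were above 0 in KO cells and 57.6% below 0 in WT cells. The share of all genes that met the whole rule was not computed. The KO response minus the WT response on the log2 scale of FPKM + 1 was 1.18 for Oasl2, 0.99 for Oasl1, 0.95 for Oas3, 0.90 for Oas2 and 0.63 for Oas1g. Oas1b showed the same kind of split with IFN-gamma, at 1.21 in KO and -0.56 in WT peritoneal cells, a difference of 1.77. Its levels there were 3.48 and 0.57 FPKM with IFN-gamma, against 0.94 and 1.32 FPKM in untreated KO and WT cells. These rest on 70.39 and 11.55 expected counts with IFN-gamma, against 19.0 and 26.4 in untreated KO and WT cells. The WT fold of counts was 0.451 (0.207 to 0.926). Stretches shared with Oas1b were not searched, so reads assigned to it from other Oas1 genes were not tested. With 1 library per group none of these differences was tested.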

How the results depend on the processing

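No paired analysis was possible because each group holds 1 library. No library could be left out of a comparison of 2 libraries. Over the pseudocount, scaling and Oas1 sum alternatives none of the 230 member ratios changed sign. Rescaling by the median gene ratio moved the all-gene median of the KO IFN-gamma response to 0, against -0.11 as deposited. With a pseudocount of 0.1 FPKM the median KO response to IFN-gamma was 3.81, against 3.34, and with that setting or TMM-scaled CPM 2 members, against 1, had a KO excess of at least 2-fold in the IL-4 response. The peritoneal genotype term called 3 genes up and 1 down in edgeR, 12 and 5 with DESeq2 size factors, 26 and 26 without the filter, 17 and 22 in DESeq2, and 0 and 0 in limma, where 1277 genes had an unadjusted p under 0.05. For the bone marrow-derived genotype term, the members called were 2 in edgeR, 1 (Oas1a) with DESeq2 size factors, 6 without the filter, 0 in DESeq2 and 0 in limma. With Oas1a and Oas1g summed they were 2 of 5, the sum and Oas2. All genes called for that term were 195 up and 474 down in edgeR, 202 and 479 with the sum, and 527 and 726 without the filter. In DESeq2 they were 44 and 111, and in limma 63 and 182. The IFN-gamma term called 1251 up and 837 down in DESeq2, against 2077 and 1796 in edgeR. The IL-4 term called 1 member (Oas1a) without the filter, and 662 up and 401 down in DESeq2 and 997 up in limma, against 1542 and 1189 in edgeR. The cause was not tested. Depth limits Oas1g, Oas2 and Oasl1 in untreated peritoneal cells, with 18 to 53 counts each, and Oas1b in all peritoneal libraries, with 11.55 to 70.39.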
